A study of Mus musculus with 21 samples.

Results

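The constitutive proteasome subunits are the genes whose products build the standard 26S proteasome and its activator caps. They were taken as the protein-coding genes with a symbol of Psma, Psmb, Psmc, Psmd or Psme followed by a digit, without the inducible catalytic subunits Psmb8, Psmb9 and Psmb10 and without pseudogenes. This rule took 42 of the 45706 gene identifiers measured. Of these 42 members, 41 had at least 5 counts over all libraries and were tested, and Psmb11, a catalytic subunit used by the thymus, was listed at 0 in every library. By role, the 42 comprised 7 alpha ring subunits (Psma1 to Psma7), 3 catalytic and 4 noncatalytic beta ring subunits, 6 ATPases (Psmc1 to Psmc6) and 11 non-ATPase subunits of the 19S cap. They also held 3 chaperones of 19S assembly (Psmd5, Psmd9, Psmd10), 5 activators (Psme1, Psme2, Psme2b, Psme3, Psme4), the testis alpha subunit Psma8, Psmb11, and Psmc3ip. Psmc3ip is a cofactor of meiotic recombination, matches the symbol rule alone and is not a subunit. The text calls the 31 subunits of the 20S barrel and the 19S cap, without chaperones and without Psma8 and Psmb11, the core subunits.

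The proteasome degrades proteins that carry ubiquitin chains. Its 20S barrel stacks alpha and beta rings, with the protease sites of Psmb5 (chymotrypsin-like), Psmb6 (caspase-like) and Psmb7 (trypsin-like) facing the inner chamber, and the 19S cap binds, deubiquitinates and unfolds the substrate. Interferons induce Psmb8, Psmb9 and Psmb10, which replace Psmb5, Psmb6 and Psmb7 in newly made barrels, and Psme1 and Psme2, whose products form the PA28 activator ring. In microglia and other myeloid cells this alternative form is known for making peptides for MHC class I.

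RNA was sequenced from cells sorted out of the mouse brain after controlled cortical impact (CCI), a piston injury of the exposed cortex used as a model of traumatic brain injury. All mice were males of C57BL/6 background, aged 17 to 24 weeks. They were wildtype (WT) or carried Fgg γ390–396A, a mutated fibrinogen gamma chain with which fibrin(ogen) clots but lacks the motif bound by the CD11b/CD18 integrin of myeloid cells. There were 7 groups of 3 libraries, and each library pooled 2 brains: WT sham microglia (craniotomy and no impact), WT and Fgg γ390–396A microglia at 1 d post-CCI, the same genotypes at 7 d post-CCI, and infiltrating myeloid cells of both genotypes at 1 d post-CCI. Microglia were sorted as CD45low CD11b+ and infiltrating myeloid cells as CD45hi CD11b+ from tissue around the lesion. The time between sham surgery and sorting is not given in the sources used here, and the same sham libraries served for both days. No Fgg γ390–396A sham microglia were analysed here, so that in a comparison of injured Fgg γ390–396A microglia with WT sham the injury and the genotype cannot be told apart. Because each library holds bulk RNA, fewer cells of a type and less RNA per cell cannot be told apart, and p-values measure the spread between libraries.

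Libraries held 18896963 to 51875790 counts, of which ribosomal RNA genes took 43.0 to 58.6%. Ribosomal RNA took 43.5 to 47.9% in sham microglia and 50.7 to 58.6% in WT microglia at 1 d post-CCI, without overlap, and 47.2 to 52.4% in Fgg γ390–396A microglia at 1 d. All 8 microglial markers, among them P2ry12 and Tmem119, were present in every microglia group. Their summed level was 10037 to 11159 CPM (counts relative to library size after TMM scaling) in sham, 2745 to 4233 in WT and 4807 to 6225 in Fgg γ390–396A microglia at 1 d, 5976 to 8163 at 7 d in both genotypes, and 345 to 963 in infiltrating myeloid cells. In the edgeR comparison with sham, 6 of these 8 markers were lower in WT and 4 in Fgg γ390–396A microglia at 1 d. The 7 inflammatory monocyte markers summed in the microglia groups to 2.84 to 4.41% of their level in infiltrating myeloid cells of the same genotype, and the 8 neutrophil markers to 2.91 to 5.71%, with at most 9.43% in a single library. None of these monocyte or neutrophil markers was at 0 in all libraries of a group, none differed between injured and sham microglia at 1 d, and their part in the results below was not tested except where a covariate is named. Markers of brain cells were low, and some of those of oligodendrocytes and astrocytes moved at 1 d. Of 5 neuron and 3 endothelium markers, 0 were called at 1 d against sham in either genotype. The 4 oligodendrocyte markers summed to 6.63 to 12.2 CPM in sham, 12.8 to 31.1 in WT and 8.40 to 15.2 in Fgg γ390–396A microglia, with 2 of 4 higher in WT and 1 in Fgg γ390–396A. The 4 astrocyte markers summed to 37.9 to 48.8 CPM in sham, 9.84 to 18.6 in WT and 15.1 to 20.7 in Fgg γ390–396A microglia, with 1 higher (Gfap) and 2 lower in each genotype. Their part was not tested.

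The members took a larger share of the protein-coding counts in microglia at 1 d post-CCI than in sham, and the share was lower at 7 d than at 1 d. The members' summed share was 0.332 ± 0.0256% (mean ± SD, n = 3 in every group) in sham, 0.558 ± 0.0178% in WT and 0.536 ± 0.0466% in Fgg γ390–396A microglia at 1 d. At 7 d it was 0.303 ± 0.00193% in WT and 0.331 ± 0.00605% in Fgg γ390–396A microglia. Infiltrating myeloid cells had 0.560 ± 0.0249% in WT and 0.521 ± 0.0121% in Fgg γ390–396A. Every library of the 1 d groups lay above every library of sham and of both 7 d groups. The 3 WT libraries at 7 d, from 0.302 to 0.306%, lay just below the lowest sham library at 0.308%, and the Fgg γ390–396A libraries at 7 d lay within the sham range.

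**Figure D1:**
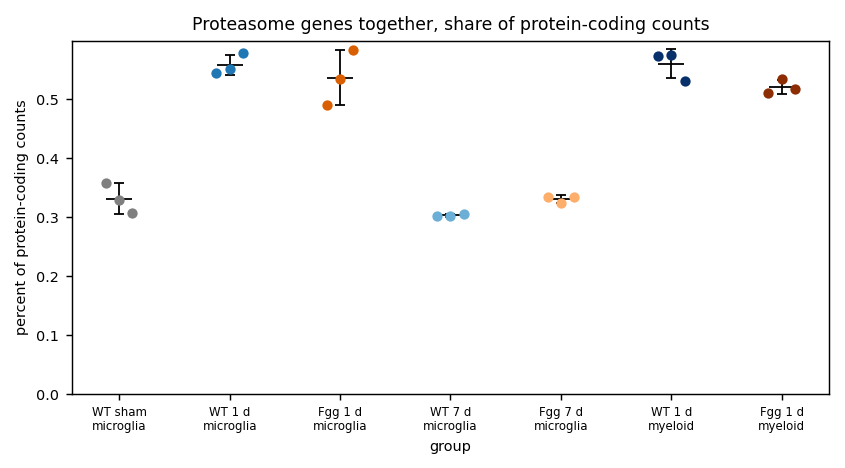
Summed share of protein-coding counts (percent, y axis from 0) taken by the constitutive proteasome genes, by group on the x axis; points are libraries and the bar with its error is the mean ± SD of 3 libraries. The sham libraries lay between 0.308 and 0.359% and the WT microglia at 1 d post-CCI between 0.545 and 0.578%.

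Within sham microglia the core subunits differed in level. The deposited counts have gene length divided out, so that CPM compares genes per length. The lowest core subunit was Psmd3, a lid subunit of the 19S cap, and the highest Psmb4, a noncatalytic beta subunit with a mean of 58.5 CPM, which was 7.21 times Psmd3. The median of the 31 core subunits was 26.3 CPM. Alpha ring subunits had a median of 38.7 CPM, beta ring subunits 34.7, ATPases 23.7, non-ATPase subunits 21.1 and the assembly chaperones 5.99. The order of the core subunits was similar after injury: Spearman's rho of the group means was 0.865 between sham and WT microglia at 1 d, and 0.943 between sham and WT microglia at 7 d. These are descriptions over 31 genes that share libraries and length estimates. Psmd3 was lowest in all 7 groups. Psmb6 was highest in WT microglia at 1 d (145 CPM), and Psma2, an alpha ring subunit, in WT infiltrating myeloid cells (176 CPM).

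The first comparison asked what injury did to the members in WT microglia. At 1 d post-CCI, 34 of 41 members rose against sham and 1, Psme2b, fell, by the quasi-likelihood test of edgeR at an adjusted p under 0.05 (Benjamini-Hochberg, over all 23815 genes tested). Of all genes tested, 10.7% were called higher and 5.97% lower. The median log2 fold change of the members was 1.23, or 2.35-fold, beside 0.00 over all genes tested. In 37 members the 3 injured libraries all lay above the 3 sham libraries, which held for 16.8% of all genes tested. Of the 31 core subunits 30 rose, with a median log2 fold change of 1.33 (2.51-fold) and a range from 0.46 to 1.89.

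The rise stood beside the change in ribosomal RNA share described above. In a fit of the microglia alone with the ribosomal RNA share as a covariate, 8 of the 35 members called remained called: Psma7, Psmb2, Psmb5, Psmb7, Psmc6, Psmd2, Psmd14 and Psmc3ip. The median log2 fold change over the members was 0.95 in that fit. How many of all genes stayed called in it is not given here. The loss of calls can therefore not be read as particular to the members. Since the shares of the groups do not overlap, injury and ribosomal RNA share cannot be told apart in this comparison. At 7 d post-CCI the ribosomal RNA share of WT microglia was also above every sham library, at 51.0 to 55.7%, with 0 of 31 core subunits called against sham and a median log2 fold change of −0.03. With the mean log2 CPM of the infiltrating-cell markers as the covariate instead, all 35 members remained called and 3 were added.

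**Figure D2:**
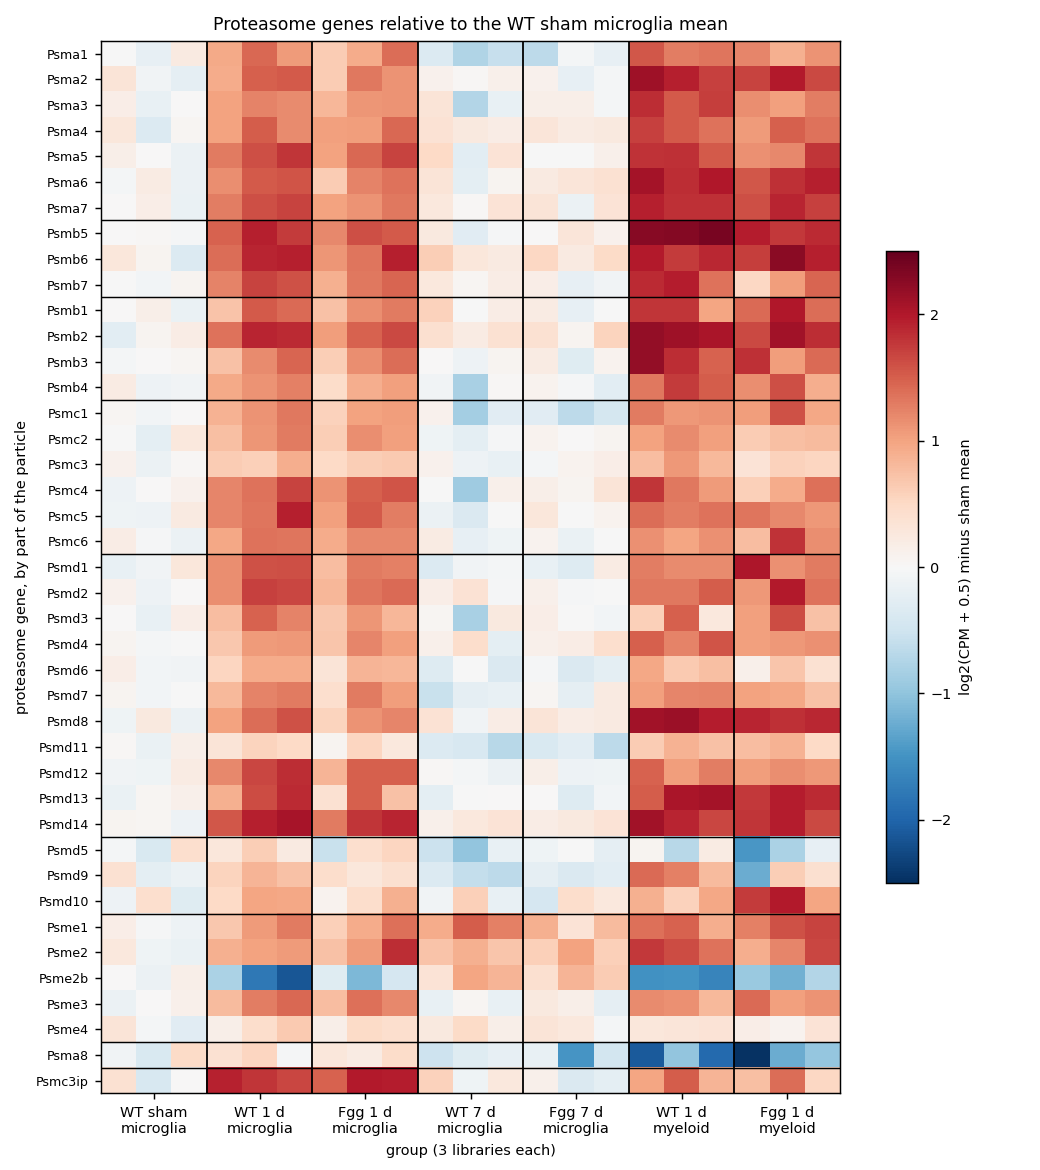
Heat map of each tested member (lines, ordered by role) in each of the 21 libraries (columns, by group); the colour is the log2 of CPM plus 0.5, minus the mean of the 3 sham libraries. The 1 d microglia and the infiltrating myeloid libraries are high over nearly all core subunits and the 7 d libraries are near sham, and Psme2b runs the other way.

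All 3 constitutive catalytic subunits rose. Psmb5 was at 22.4, 22.5 and 21.6 CPM in the 3 sham libraries, at 62.4, 86.1 and 75.8 in WT microglia at 1 d, and at 26.5, 18 and 21.8 at 7 d. The 1 d libraries stood clear of both other groups, and the 7 d libraries straddled sham. The log2 fold change of Psmb5 at 1 d was 1.75 ± 0.17 (SE, adjusted p = 6.83e-07). Psmb6 was at 51.5, 44.4 and 33.2 CPM in sham and 113, 159 and 164 in WT microglia at 1 d, a log2 fold change of 1.76 ± 0.23 (adjusted p = 1.73e-05). Psmb7 was at 26.2, 25.1 and 27.7 CPM in sham and 62.6, 86.4 and 80.6 at 1 d, a log2 fold change of 1.54 ± 0.22 (adjusted p = 6.12e-05). For both genes the groups did not overlap. Transcripts of Psmb7 (chr2:38588036-38644087) are complementary to those of Nek6 over 255 bases, and whether the counting used strand is not given in the sources used here.

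Psmb5 (chr14:54614119-54618022, minus strand, GRCm38) and Psmb6 (chr11:70525367-70527858, plus strand) are shown with the start of their promoters. Both hold the letters TGACNNNGC, the core of the antioxidant response element that factors of the Nrf family bind. RefSeq promoters (GRCm38.p6, 250 bases before to 50 after the start, both strands searched) could be matched for 35 of 42 members. The letters were found in 6 of these 35 (17.1%), beside 14% of the 27025 genes with a promoter in the table. The 6 are Psmb5, Psmb6, Psmc6 and Psmd12, which rose, and Psmd9 and Psme4, which did not pass the test at 1 d. Most members that rose and could be matched lack the letters. The letters CCGGAAG, to which ETS factors bind, were found in 13 of 35 members (37.1%), beside 9.93% of all genes, and CCAAT in 14 (40%), beside 41.1%. The core of the interferon-stimulated response element, GAAA repeated after a gap of 2 bases, was found in 4 of 35 (11.4%), beside 3.99%: Psmb3, Psmd4, Psmd9 and Psme1. No matches of different motifs overlapped in these promoters, and a match is a description of the window and not a bound site. The windows with TGACNNNGC and the interferon motif of Psme1 are printed, and those of the other matches are not. Each line gives the strand that is printed, the gene's own, 5′ to 3′, with the motif in capitals. In Psmc6, Psmd12, Psme4 and Psme1 the capitals are the motif's reverse complement.
Psmb5 (chr14:54618024-54618052, minus strand): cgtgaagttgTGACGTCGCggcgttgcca
Psmb6 (chr11:70525338-70525366, plus strand): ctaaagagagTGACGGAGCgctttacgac
Psmc6 (chr14:45329587-45329615, plus strand): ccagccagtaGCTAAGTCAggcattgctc
Psmd12 (chr11:107479278-107479299, plus strand): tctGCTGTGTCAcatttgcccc
Psmd9 (chr5:123228149-123228177, plus strand): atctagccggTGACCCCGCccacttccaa
Psme4 (chr11:30771758-30771786, plus strand): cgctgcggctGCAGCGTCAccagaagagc
Psme1 (chr14:55578493-55578522, plus strand, interferon motif): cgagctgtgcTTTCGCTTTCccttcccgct

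All of the other 20S subunits rose as well. The 7 alpha ring subunits, which form the gate of the barrel, had a median log2 fold change of 1.33. Psma7 was at 44.2, 49.4 and 39.0 CPM in sham and at 108, 136 and 143 in WT microglia at 1 d, a log2 fold change of 1.54 ± 0.17 (adjusted p = 3.14e-06). Psma5, which lies on chromosome 3 as Fgg does, was at 20.3, 18.5 and 16.5 CPM in sham and 46.1, 57.1 and 64.7 at 1 d, a log2 fold change of 1.60 ± 0.23 (adjusted p = 4.2e-05). Neither gene's groups overlapped. The 4 noncatalytic beta subunits had a median of 1.22. Among them Psmb4, also on chromosome 3 and the highest core subunit in sham, was at 67.1, 53.5 and 54.9 CPM in sham and 113, 127 and 140 at 1 d, a log2 fold change of 1.11 ± 0.22 (adjusted p = 0.00137). The testis subunit Psma8 stayed low, at 1.63 to 3.34 CPM in sham and 2.22 to 3.51 in WT microglia at 1 d (log2 fold change 0.32 ± 0.80, adjusted p = 0.891). Psma3 has a processed pseudogene, Gm13835, of identical sequence over 665 bases with 3400 counts beside its own 51111, so its division of reads is uncertain.

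In the 19S cap all 6 ATPases and 10 of 11 non-ATPase subunits rose. The ATPases, the ring that unfolds the substrate and threads it into the barrel, had a median log2 fold change of 1.19, from 0.72 ± 0.15 for Psmc3 (adjusted p = 0.0016) to 1.55 ± 0.19 for Psmc5 (adjusted p = 1.18e-05). The non-ATPase subunits had a median of 1.36. Psmd14, the lid enzyme that removes ubiquitin chains as the substrate enters, had the smallest adjusted p of all members. It was at 19.2, 19 and 16.7 CPM in sham, 54.9, 71.4 and 78.0 in WT microglia at 1 d, and 19.9, 22.1 and 23.2 at 7 d. The 1 d libraries stood apart from the rest, with a log2 fold change against sham of 1.89 ± 0.18 (adjusted p = 6.77e-07). Psmd4, the ubiquitin receptor Rpn10 and the last member on chromosome 3, was at 26.9, 24.6 and 25.3 CPM in sham and 41.0, 53.8 and 54.6 at 1 d, a log2 fold change of 0.96 ± 0.18 (adjusted p = 0.000761). Psmd11, the lid subunit Rpn6, was the core subunit that did not pass the test. It was at 21.2, 18.4 and 23.0 CPM in sham and 26.0, 30.7 and 29.4 at 1 d, without overlap (log2 fold change 0.46 ± 0.17, adjusted p = 0.0756). Psmd11 has a near-complementary transcript, A730017L22Rik (97.9% over 1501 bases), and a processed pseudogene, Gm14048 (98.0% identical over 1269 bases). These had 1405 and 588 counts beside 16424 for Psmd11, so its division of reads is uncertain.

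The chaperones of 19S assembly did not pass the test. Psmd5, Psmd9 and Psmd10 had log2 fold changes of 0.36, 0.75 and 0.85 in WT microglia at 1 d, with a median level of 5.99 CPM in sham and 11 at 1 d. Psmc3ip, which is no subunit, was at 4.78, 2.54 and 3.57 CPM in sham and 14.8, 13.5 and 12.3 at 1 d, a log2 fold change of 1.90 ± 0.31 (adjusted p = 0.000181). Its transcripts are complementary to those of Mlx over 385 bases, with 5935 counts for Mlx beside 5171 for Psmc3ip.

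The activators split by type. Psme1, the PA28α chain (chr14:55578123-55581529), was at 60.2, 52.4 and 49.2 CPM in sham, 86.5, 113 and 134 in WT microglia at 1 d, and 102, 155 and 129 at 7 d. Both injured groups lay above sham and overlapped each other. Psme1 rose at 1 d by a log2 fold change of 1.04 ± 0.23 (adjusted p = 0.00291). It was also the one member called against sham at 7 d in WT microglia, with a log2 fold change of 1.25 ± 0.23 (adjusted p = 0.0038). With the ribosomal RNA share as a covariate Psme1 was not called at 7 d.

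Psme2, the PA28β chain, was at 50.6, 38.9 and 37.3 CPM in sham, 77.6, 84.2 and 88.1 in WT microglia at 1 d, and 68.6, 77.6 and 67.6 at 7 d. Both injured groups lay above sham. Psme2 rose at 1 d (log2 fold change 0.98 ± 0.24, adjusted p = 0.00745) and did not pass the test at 7 d (0.75 ± 0.24, adjusted p = 0.136). Psme3, the nuclear PA28γ, was at 10.6, 11.8 and 12.8 CPM in sham, 20.5, 28.8 and 32.6 at 1 d, and 10.2, 12.1 and 10.2 at 7 d. It rose at 1 d by a log2 fold change of 1.22 ± 0.21 (adjusted p = 0.000274), and its 7 d libraries overlapped sham. Psme4, the single-chain activator PA200, ranged from 13.4 to 26.0 CPM over sham and WT microglia at 1 d and did not pass the test (0.42 ± 0.18, adjusted p = 0.141).

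Psme2b moved opposite to the rest. This copy of Psme2 on chromosome 11 was at 36.0, 32.4 and 39.7 CPM in sham, 20.5, 10.1 and 7.73 in WT microglia at 1 d, and 45.4, 71.5 and 65.0 at 7 d. The 3 groups did not overlap, with 1 d lowest and 7 d highest. Psme2b fell at 1 d (log2 fold change −1.50 ± 0.29, adjusted p = 0.00101), and was higher at 7 d than at 1 d (2.25 ± 0.30, adjusted p = 7.13e-05). Its sequence is 99.4% identical to Psme2 over 794 bases, so how the estimated counts were divided between the pair is uncertain. As gene length is divided out, the sum of both genes depends on that division only where their estimated lengths differ. The sum was 78.3 ± 7.70 CPM in sham, 96.1 ± 1.92 in WT microglia at 1 d and 132 ± 17.6 at 7 d. Psme2b took 46.2% of the sum on average in sham, 13.2% at 1 d and 45.6% at 7 d in WT microglia. In Fgg γ390–396A microglia it took 20.03% at 1 d and 44.5% at 7 d, and in infiltrating myeloid cells 8.67% in WT and 15.5% in Fgg γ390–396A.

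**Figure D3:**
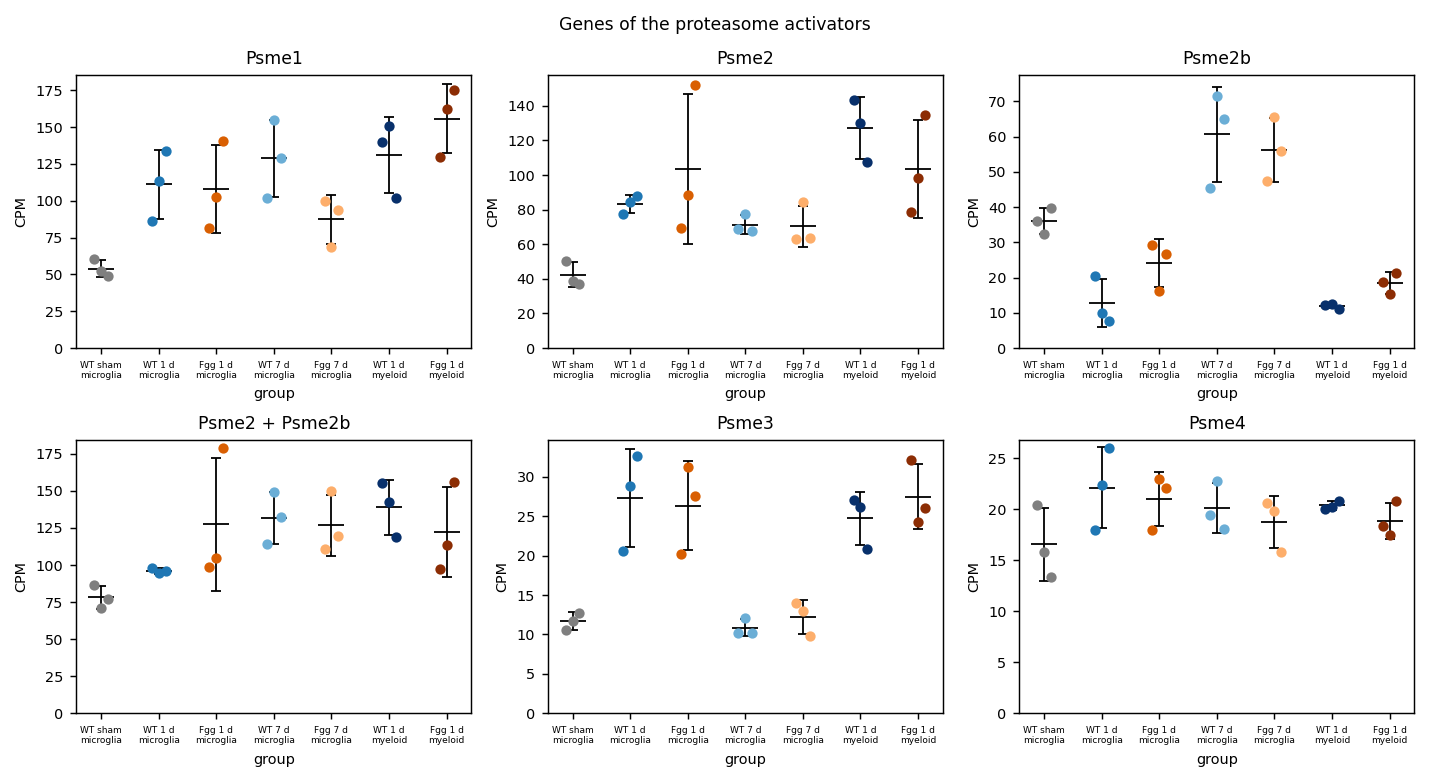
Level (CPM, y axis from 0) of the activator genes Psme1, Psme2, Psme2b, Psme3 and Psme4 and of the sum of Psme2 and Psme2b, by group; points are libraries and bars the mean ± SD of 3 libraries. Psme1 was above all sham libraries at 1 d and 7 d in WT microglia, Psme3 at 1 d, and Psme2b was below sham at 1 d and above it at 7 d.

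By 7 d few members of WT microglia passed the test against sham. Of 41 members 1 was higher than sham, Psme1, and 0 were lower, in edgeR's test, beside 2.42% and 0.265% of all genes tested. The median log2 fold change of the core subunits was −0.03. Compared with 1 d, 34 members were lower at 7 d and 1, Psme2b, was higher, beside 6.6% and 3.7% of all genes. All 31 core subunits were among those that fell, with a median log2 fold change of −1.37 (0.387-fold). Psmb5 fell by 1.76 ± 0.17 on the log2 scale (adjusted p = 6.66e-06), Psmd14 by 1.65 ± 0.18 (adjusted p = 1.66e-05) and Psmc5 by 1.73 ± 0.19 (adjusted p = 1.99e-05). Psme1 did not pass the test between the time points (0.21 ± 0.23, adjusted p = 0.642).

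**Figure D4:**
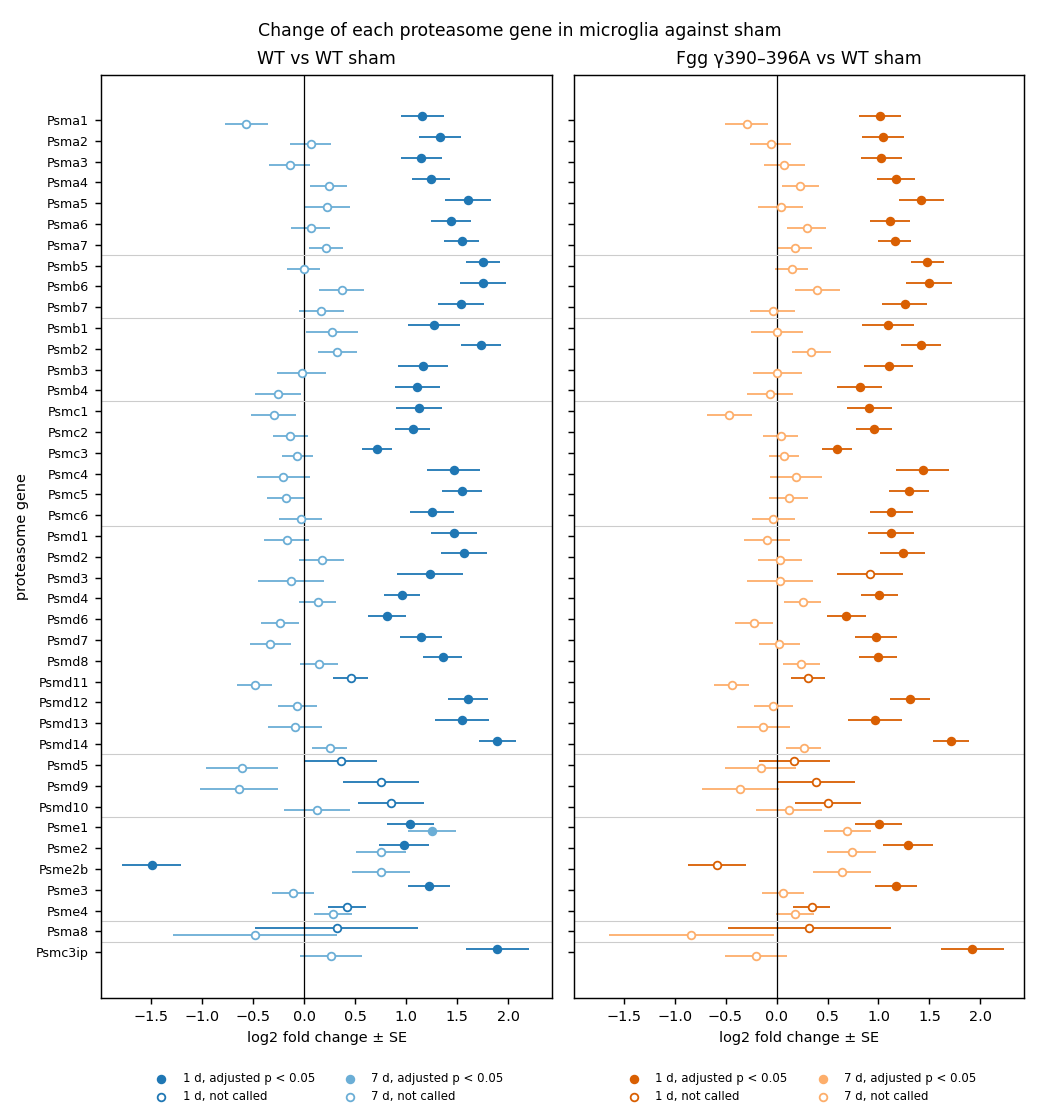
Log2 fold change against WT sham microglia of each tested member in microglia at 1 d and 7 d post-CCI of both genotypes; error bars are standard errors of the edgeR fit and filled points passed an adjusted p under 0.05. The core subunits lie between 0.46 and 1.89 in WT at 1 d, and at 7 d they lie on both sides of 0 with none called in either genotype.

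In Fgg γ390–396A microglia at 1 d post-CCI, 33 of 41 members were higher than in WT sham and 0 lower, beside 7.6% and 2.19% of all genes. The median log2 fold change of the members was 1.04, and 29 of 31 core subunits were called, with a median of 1.10 (2.14-fold). Psmb5 was at 51.6, 68.9 and 65.0 CPM, a log2 fold change against sham of 1.48 ± 0.17 (adjusted p = 8.78e-06). Psmd14 was at 45.6, 64.2 and 69.9 CPM, with 1.71 ± 0.18 (adjusted p = 4.16e-06). Psmb2, a noncatalytic beta subunit, was at 80.4, 108 and 122 CPM beside 32.1, 40.4 and 43.9 in sham, with 1.41 ± 0.19 (adjusted p = 7.23e-05). All of these libraries were above all sham libraries. The core subunits that did not pass were Psmd11 (0.31 ± 0.17, adjusted p = 0.323) and Psmd3 (0.92 ± 0.32, adjusted p = 0.0882). Psme2b, at 29.1, 16.3 and 26.7 CPM, was below every sham library and did not pass the test (−0.58 ± 0.28, adjusted p = 0.256). With the ribosomal RNA share as a covariate 29 of the 33 members remained called, and the number over all genes in that fit is not given here. Psmb4 (0.81 ± 0.22, adjusted p = 0.0223) lost its call when Fgg γ390–396A replicate 2 or 3, or sham replicate 2 or 3, was left out.

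At 7 d, 0 of 41 members differed from WT sham in Fgg γ390–396A microglia by edgeR and 0 by DESeq2, beside 0.831% of genes called higher and 0.0546% lower by edgeR. At an unadjusted p under 0.05 there were 4, beside 7.59% of all genes. The core subunits had a median log2 fold change of 0.03. Psme1 was at 99.8, 68.6 and 93.5 CPM, above every sham library (0.69 ± 0.23, adjusted p = 0.273). Compared with Fgg γ390–396A microglia at 1 d, 32 members were lower at 7 d and 1 was higher, beside 4.56% and 1.08% of all genes. Psmb5 fell by 1.33 ± 0.16 on the log2 scale (adjusted p = 9.01e-05), Psmd14 by 1.44 ± 0.18 (adjusted p = 9.01e-05) and Psmd12 by 1.34 ± 0.19 (adjusted p = 0.000319). Psme2b was higher at 7 d (1.23 ± 0.29, adjusted p = 0.0138), and was not called without Fgg γ390–396A replicate 2 of either day.

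The genotypes were compared directly at each time and in each cell type, which asked whether loss of the integrin motif of fibrin changed the members. No member passed the edgeR test in any of these 3 comparisons. In microglia at 1 d, 0 of 41 members differed, beside 0.0294% of genes called higher and 0.0126% lower in Fgg γ390–396A, with 3 members at an unadjusted p under 0.05 (5.08% of all genes) and 0 members by DESeq2. Of the 31 core subunits 30 had a lower fitted level in Fgg γ390–396A, with a median log2 fold change of −0.22 (0.861-fold) and a range from −0.58 to 0.05. Over all genes tested the median was 0.00. The core subunits share the same libraries, so their signs are not separate observations. The 95% intervals of the core subunits ran from −1.13 at the lowest to 0.50 at the highest, and 1 of the 31, that of Psmd13, went below −1. Transcripts of Psmd13 are complementary to one of Sirt3 over 329 bases, so that with strand not given its reads may be shared. Psmb5 had −0.27 ± 0.16, with an interval from −0.61 to 0.06, Psmb6 −0.26 ± 0.22 and Psmb7 −0.28 ± 0.22. The chromosome 3 members Psma5, Psmb4 and Psmd4 had −0.18 ± 0.22, −0.30 ± 0.22 and 0.05 ± 0.18. All 6 genes overlapped between the genotypes. Psme2b had 0.91 ± 0.29 (adjusted p = 0.813), and without WT replicate 1 it was called higher in Fgg γ390–396A.

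Library 1 of each genotype at 1 d had the lowest member level of its group. The mean log2 CPM over the members was 5.34, 5.68 and 5.70 in the 3 WT libraries and 5.11, 5.51 and 5.60 in the 3 Fgg γ390–396A libraries. Without both libraries numbered 1, chosen as an alternative after seeing the data, the 35 and 33 members called against sham stayed called. In microglia at 7 d, 0 members differed between genotypes, beside 0.0252% of genes called higher and 0.0126% lower, with 1 at an unadjusted p under 0.05 (3.34% of all genes) and 0 by DESeq2. That member was Psme1, with a log2 fold change of −0.56 ± 0.23 (adjusted p = 1.00) and no overlap between genotypes. The core intervals ran from −0.80 to 0.94.

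In infiltrating myeloid cells 0 members differed between genotypes by edgeR, beside 0.122% of genes called higher and 0.084% lower, with 7 members at an unadjusted p under 0.05 (11.5% of all genes). DESeq2 called 1, Psmb7 (adjusted p = 0.0489). Psmb7 was at 96.9, 104 and 67.9 CPM in WT and 37.7, 54.8 and 73.1 in Fgg γ390–396A. The third library of each genotype lay within the other's range, and the edgeR log2 fold change was −0.70 ± 0.22 (adjusted p = 0.224). Without Fgg γ390–396A replicate 3 it was called by edgeR (adjusted p = 0.0445). Psmb5, at 109, 111 and 118 CPM in WT and 87.7, 76.7 and 81.6 in Fgg γ390–396A, did not overlap between genotypes and did not pass the test (−0.46 ± 0.16, adjusted p = 0.285). The core median was −0.20, with intervals from −1.16 to 0.98. In the test of whether the genotype difference itself differed, 0 members were called between 7 d and 1 d in microglia and 0 between infiltrating myeloid cells and microglia by edgeR and by DESeq2. At an unadjusted p under 0.05 there were 1 and 2 members, beside 2.74% and 8.37% of all genes. Over all genes the adjusted test called 0% higher or lower in the first of these tests, and 0% higher and 0.0252% lower in the second.

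The balance between each constitutive catalytic subunit and the inducible subunit that replaces it was measured as a share of the pair within a library, which needs no scaling between libraries. All 3 shares were lower in WT microglia at 1 d than in sham. Psmb8 took 52.5 to 58.5% of Psmb5 plus Psmb8 in sham, 34.2 to 36.9% in WT microglia at 1 d and 60.5 to 68.4% at 7 d. Psmb9 took 21.2 to 35.7% of Psmb6 plus Psmb9 in sham and 4.31 to 10.2% at 1 d. Psmb10 took 50.1 to 55.0% of Psmb7 plus Psmb10 in sham and 30.5 to 34.1% at 1 d. Within these pairs Psmb8 itself rose in WT microglia at 1 d (log2 fold change 0.59 ± 0.18, adjusted p = 0.0259), beside 1.75 for Psmb5. Psmb9 (−0.64 ± 0.25, adjusted p = 0.0859) and Psmb10 (0.29 ± 0.23, adjusted p = 0.434) did not pass the test.

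The shares were higher in Fgg γ390–396A than in WT microglia at 1 d in every library and all 3 pairs. The pairs share the same libraries, so they are not separate observations. Of Psmb8, Psmb9 and Psmb10 themselves, 0 of 3 were called between these genotypes by edgeR, with a median log2 fold change of 0.11. Psmb8 took 38.3 to 44.7% of its pair in Fgg γ390–396A microglia at 1 d, a mean 6.40 percentage points above WT. Psmb9 took 11.6 to 16.4%, a mean 6.61 points above WT, and Psmb10 34.5 to 38.1%, a mean 4.32 points above. An exact two-sided permutation test gave p = 0.1 for each, the smallest that 3 libraries against 3 allow, and 0.175 after adjustment over the 21 such tests made, so that no share difference could pass 0.05. In infiltrating myeloid cells Psmb8 took 33.6 to 42.0% in WT and 45.1 to 52.0% in Fgg γ390–396A, and Psmb10 28.0 to 36.4% and 40.0 to 50.4%, without overlap, while Psmb9 overlapped (11.8 to 18% and 12.5 to 21.8%). At 7 d the genotypes overlapped in all 3 pairs.

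**Figure D5:**
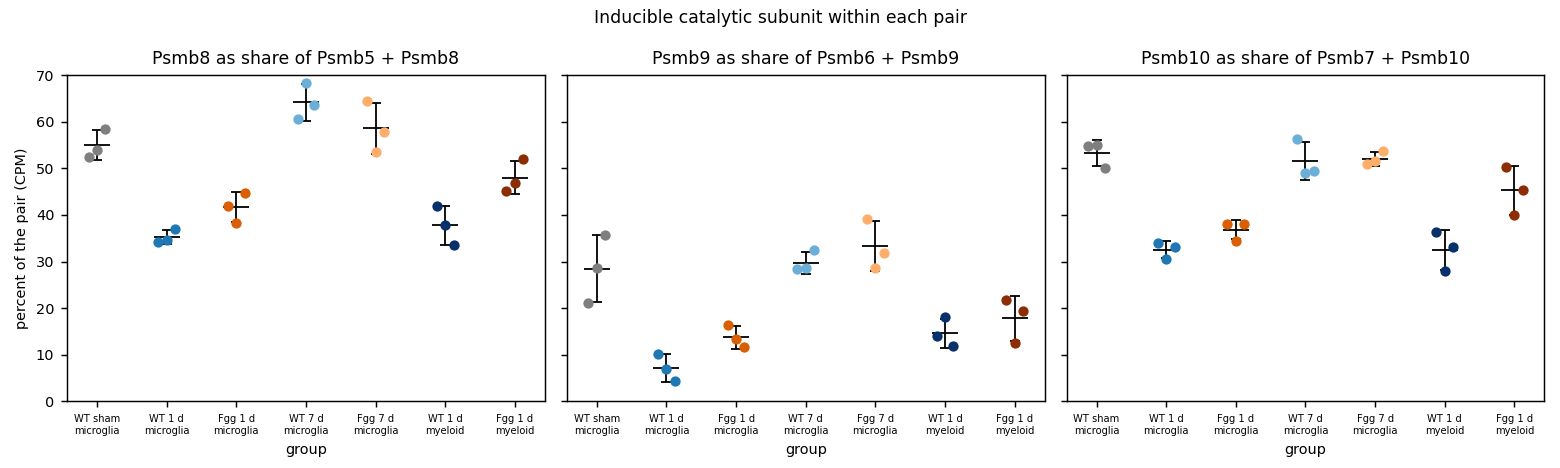
Share (percent, y axis from 0) of the inducible catalytic subunit in each pair, Psmb8 with Psmb5, Psmb9 with Psmb6 and Psmb10 with Psmb7, by group; points are libraries and bars the mean ± SD of 3 libraries. All 3 shares were lowest in WT microglia at 1 d or shared that place with WT infiltrating myeloid cells, and at 1 d the Fgg γ390–396A microglia lay above WT.

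Infiltrating myeloid cells were compared with microglia of the same genotype at 1 d. The median level of the 7 alpha ring subunits was 124 to 154 CPM in WT infiltrating myeloid cells and 85.6 to 109 in WT microglia, and that of the beta ring subunits 118 to 146 and 64.9 to 107, without overlap. In Fgg γ390–396A the alpha ring medians overlapped, at 86.9 to 104 and 63.6 to 100.1 CPM, and the beta ring medians did not, at 105 to 121 and 59.1 to 102. How many of all genes did not overlap is not given here. In WT the alpha ring subunits had a median log2 fold change of 0.33, with 0 of 7 called. Catalytic beta subunits had 0.23 (1 of 3), noncatalytic 0.41 (1 of 4), ATPases −0.00016 (0 of 6) and non-ATPase subunits 0.03 (1 of 11). In Fgg γ390–396A the 20S medians were 0.13 (3 of 7), 0.41 (0 of 3) and 0.45 (0 of 4). Those of the 19S cap were −0.09 (0 of 6) and 0.30 (2 of 11). By edgeR 3 members were higher and 1 lower in WT infiltrating myeloid cells than in WT microglia, beside 7.56% and 8.12% of all genes. The number called was 11 by DESeq2, 9 with edgeR's filterByExpr and 8, 7 of them higher, with DESeq2's size factors. The shares of all genes above belong to the main fit, and those under these settings are not given here. Psmd8, a lid subunit, was at 130, 134 and 117 CPM in infiltrating myeloid cells and 60.5, 80.0 and 91.1 in microglia, without overlap (log2 fold change 0.72 ± 0.19, adjusted p = 0.0101). Psmb5 (0.59 ± 0.16, adjusted p = 0.0158) and Psmb3, a noncatalytic beta subunit (0.71 ± 0.24, adjusted p = 0.0495), were the others called higher, and Psma8 was lower (−2.84 ± 0.88, adjusted p = 0.0324). Psma8 rested on 6, 17 and 5 counts in the WT infiltrating myeloid libraries. Without WT microglia replicate 1 none of the 4 was called. Psmb5 also lost its call without infiltrating myeloid replicate 3, Psmb3 without microglia replicate 2 or infiltrating myeloid replicate 1 or 2, and Psma8 without microglia replicate 2 or infiltrating myeloid replicate 1 or 3. Across the 31 core subunits Spearman's rho of the group means of both WT cell types was 0.940.

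In Fgg γ390–396A 6 members were higher and 2 lower in infiltrating myeloid cells, beside 9.33% and 12.1% of all genes, by edgeR. The number called was 17 by DESeq2, 14 with filterByExpr and 10, all higher, with DESeq2's size factors, and the shares of all genes under these settings are not given here. Psmd8 was at 113, 107 and 112 CPM and in microglia at 44.2, 65.9 and 69.9 (log2 fold change 0.88 ± 0.19, adjusted p = 0.00182). Psma7 was at 136, 167 and 146 CPM, above all 3 microglia libraries at 88.9, 96.7 and 110 (0.60 ± 0.16, adjusted p = 0.0123). Psmd10, the assembly chaperone gankyrin, was at 21.6, 25.5 and 12.5 CPM and in microglia at 6.44, 8.43 and 11.7, without overlap (1.17 ± 0.32, adjusted p = 0.0132). Psma2, Psma6 and Psmd13 were the others called higher. Psmc3ip (−0.93 ± 0.30, adjusted p = 0.0317) and Psma8 (−2.44 ± 0.85, adjusted p = 0.046) were lower. Without Fgg γ390–396A microglia replicate 1 these calls came to 3, of which 2 were among the 8, and without infiltrating myeloid replicate 2 to 4. Psma7 and Psmd10 lost their calls in both cases. Psmc3ip lost its call without microglia replicate 2 or 3 or infiltrating myeloid replicate 1 or 3, and Psma8 without any 1 of the libraries other than infiltrating myeloid replicate 3.

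Of 35 other genes of the ubiquitin and proteasome pathway, 16 rose and 1 fell in WT microglia at 1 d against sham, beside 10.7% and 5.97% of all genes. There were 12 that rose and 2 that fell in Fgg γ390–396A, beside 7.6% and 2.19%. In WT the smallest adjusted p belonged to Rps27a, which encodes ubiquitin fused to a ribosomal protein (log2 fold change 1.63 ± 0.18, adjusted p = 3.64e-06), followed by Sem1, the smallest subunit of the 19S lid (1.49 ± 0.17, adjusted p = 6.26e-06). Sem1 was at 7.36, 6.91 and 7.62 CPM in sham and 18, 20.9 and 22.6 at 1 d, without overlap. Nfe2l1, which encodes a transcription factor known to drive proteasome genes, was singled out after its values were seen. It was at 21.5, 13.3 and 23.1 CPM in sham and 37.0, 50.8 and 46.9 in WT microglia at 1 d (1.22 ± 0.20, adjusted p = 0.000175), and at 28.8, 38.4 and 32.9 in Fgg γ390–396A (0.79 ± 0.20, adjusted p = 0.0117). Both 1 d groups lay above sham. It was the 1 gene called of the 4 listed for proteasome gene transcription, whose median log2 fold change was −0.26 in WT and −0.26 in Fgg γ390–396A. The others were Ddi2 (−0.37 ± 0.18, adjusted p = 0.193 in WT), Nfe2l2 (−0.33 ± 0.19, adjusted p = 0.276) and Ngly1 (−0.19 ± 0.38, adjusted p = 0.836).

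At 7 d Rps27a (1.07, adjusted p = 0.00181) and Sem1 (0.81, adjusted p = 0.011) were higher than sham in WT microglia. Between 1 d and 7 d 16 of the 35 fell and 1 rose in WT, beside 6.6% and 3.7% of all genes, led by Vcp, the segregase that extracts ubiquitinated proteins (−1.41, adjusted p = 7.49e-05). In Fgg γ390–396A 9 fell and 0 rose, beside 4.56% and 1.08%, also led by Vcp (−1.20, adjusted p = 0.000607). Sem1 was the most different between cell types, at 70.0, 66.0 and 59.6 CPM in WT infiltrating myeloid cells (1.67 against WT microglia, adjusted p = 1.66e-06) and 71.4, 65.4 and 56.0 in Fgg γ390–396A (1.93, adjusted p = 3.03e-07). In all, 9 of 35 were higher and 1, Usp14, lower in WT infiltrating myeloid cells than in microglia, beside 7.56% and 8.12% of all genes, and 11 higher and 2 lower in Fgg γ390–396A, beside 9.33% and 12.1%. None of the 35 differed between genotypes in any of the 3 comparisons by edgeR.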

How the data were processed

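RNA of 40000 sorted microglia or 25000 infiltrating myeloid cells per library was amplified with the Ovation RNA-seq System V2 and sequenced as paired-end reads of 100 bases. The authors ran the nf-core/rnaseq pipeline, in which salmon quantified each library, and deposited 1 table of expected counts per gene (GRCm38), with gene length divided out within a library and no normalization between libraries. Strandedness is not given in the sources used here. Of 45706 gene identifiers, 45143 were matched to GENCODE M21 for names and positions, and 563 were not. All 21 library columns were assigned by name.

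Here the estimated counts as deposited were rounded to whole numbers, and a gene was tested where its counts summed over the libraries to at least 5. All 21 libraries were fitted together by edgeR 4.0.16 (R 4.3.3, TMM factors, quasi-likelihood test, 1 mean per group, common biological coefficient of variation 0.643), with Benjamini-Hochberg adjustment over 23815 genes and a call at an adjusted p under 0.05. CPM are TMM-scaled. Ribosomal RNA share covers annotated rRNA genes, the mitochondrial ones included, together with Rn45s, Rn18s, Rn28s and Gm26917, as a share of the deposited counts. The library totals set the precision: 3 counts correspond to 0.0578 to 0.159 CPM. On counts simulated for the 1 d comparison of WT microglia with sham (23512 genes), edgeR recovered 86% of 100 genes changed by a log2 fold of 2 and 11% of 100 changed by 1, with 2 other genes called. These simulated counts had the same biological coefficient of variation for every gene, set lower than the fitted 0.643, and no other genes were changed. The percentages recovered therefore do not carry over to the members. Shares within a pair were compared by exact permutation tests in scipy 1.17.1. The catalytic subunits, the activators, the chromosome 3 members and the 3 members with the smallest adjusted p per direction are named in each comparison where useful, as are pathway genes so ranked, of which some are not reported here, and other members are named as examples. The members and gene lists were chosen with earlier results of these data known. Alternatives were DESeq2 1.42.0, other scalings, filters and thresholds, the compared groups alone, each library left out, a replicate block, and, chosen after seeing the data, both covariates and the pair of 1 d libraries.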

Additional observations from a re-analysis of the deposited data

How the results depend on the processing

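No result changed direction while it passed the test. Of the counts of members called, 212 values over all alternatives stayed within 1.5 times the reported count, and 11 rose and 11 fell past that. The counts at 1 d against sham and at 7 d against 1 d stayed within that range in every alternative other than the ribosomal RNA covariate, which left 8 of 35 for WT at 1 d, and the bar of an absolute log2 fold change above 1, which left 21 for Fgg γ390–396A at 7 d against 1 d. For WT at 7 d against sham the count of 1 became 3 by DESeq2 (Psme1, Psme2 and Psmd11), 0 with the ribosomal RNA covariate and 2 with the infiltrating-cell covariate. Between genotypes in infiltrating myeloid cells DESeq2 called 1. The least stable counts were those between cell types. In WT, 4 became 11 by DESeq2, 8 with DESeq2's size factors, 9 with edgeR's filterByExpr, 8 at an adjusted p under 0.1, 1 with the log2 bar and 1 without both 1 d microglia libraries numbered 1. In Fgg γ390–396A, 8 became 17 by DESeq2, 14 with filterByExpr, 5 with the compared groups alone and 2 with the log2 bar. The causes were not tested, and the numbers of all genes called in these alternatives are not given here. DESeq2's size factors gave 7 higher and 1 lower in WT and 10 higher and 0 lower in Fgg γ390–396A.

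With 1 library left out, the counts ran from 34 to 35 for WT and from 28 to 33 for Fgg γ390–396A at 1 d against sham, from 32 to 35 and from 23 to 33 at 7 d against 1 d, from 0 to 6 and from 3 to 9 between cell types, and from 0 to 1 between genotypes in microglia at 1 d and in infiltrating myeloid cells. They stayed at 1 for WT and at 0 for Fgg γ390–396A at 7 d against sham, and at 0 between genotypes at 7 d. Replicate numbers recur in every group, and nothing in the labels ties equal numbers together. Deviations of equally numbered libraries correlated by −0.0377 to 0.293 over 15210 genes. The closest were both genotypes of microglia at 1 d, at 0.0789 to 0.293, where 5 of 6 libraries correlated best with their own number. So did 5 of 6 between genotypes of microglia at 7 d (0.0239 to 0.0872) and between WT cell types at 1 d (0.0353 to 0.130). Elsewhere at most 4 of 6 did. The numbers were not taken as pairs in the main fit, but pairing is not excluded. With a replicate block the calls were 35, 33 and 1 against sham in WT at 1 d, Fgg γ390–396A at 1 d and WT at 7 d, 35 and 33 at 7 d against 1 d, 3 and 9 between cell types, and 0 elsewhere.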
